A study of Rattus norvegicus with 120 samples.

Results

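Insulin and IGF signalling genes were followed in the kidneys of 120 male Sprague-Dawley rats treated with 1 of 3 immunosuppressants or vehicle. The set held 8 genes of the 14217 that the array measured with a probe set of their own: the binding proteins Igfbp1, Igfbp3, Igfbp4 and Igfbp5, the receptors Igf1r and Insr, and the adaptors Irs1 and Irs2. They were chosen by name, and where a gene had several probe sets that map to it alone, the one with the highest mean over all arrays was used. Irs1 was dim (mean log2 level 5.14) and was described but not tested, so 7 of the 8 were tested among 10663 genes.

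Rats were 5 to 7 weeks old before treatment and were injected intraperitoneally once a day. The vehicle was olive oil, and the drugs were CsA (cyclosporine A, 25 mg/kg as the higher and 2.5 mg/kg as the lower dose), FK506 (6 and 0.6 mg/kg) and Rapa (rapamycin, 10 and 1 mg/kg). Rats were killed at day 1, 7, 14 or 28, in each case 24 hours after the last dose, which gave 28 groups of different animals. RNA came from portions of both kidneys. CsA and FK506 inhibit the phosphatase calcineurin, and Rapa inhibits the kinase mTOR, which itself acts downstream of the insulin and IGF receptors. The title of the series gives its aim as early genomic markers of kidney toxicity of calcineurin inhibitors.

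IGF1 and insulin bind receptor tyrosine kinases, which recruit insulin receptor substrates, activate PI3 kinase and Akt, and keep FoxO transcription factors out of the nucleus. IGF binding proteins hold IGF in the circulation and in tissue and set how much of it reaches the receptor. In the kidney IGF1 and growth hormone raise filtration and tubule growth, and Igfbp1 is a well-known FoxO target that insulin lowers in liver.

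Levels are log2(deposited intensity + 16) after quantile normalization, and changes are differences of such levels. A probe set's level cannot be set against another's, because probes differ in brightness. Each array was 1 rat, numbered here in the order of deposit, and a group was 4 rats at days 1, 7 and 14, apart from FK506 6 mg/kg at day 14 with 3. The day 28 groups were larger, 6 rats for either Rapa dose and for FK506 0.6 mg/kg, and 5 for FK506 6 mg/kg, CsA 2.5 mg/kg and vehicle, with 4 for CsA 25 mg/kg. Errors of levels are standard deviations (SD) over rats and errors of changes are standard errors (SE) of the model. "Called" means an adjusted p under 0.05 in limma's test with Benjamini-Hochberg adjustment over all 10663 genes of a comparison. All adjusted p values below are of this kind, and all comparisons with vehicle use the vehicle rats of the same day, so the drugs share those rats.

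The arrays carried the markers of kidney, with median levels of 13.7 for Slc34a1 of the proximal tubule, 13.71 for Umod of the thick ascending limb and 11.72 for Aqp2 of the collecting duct. A few features of single arrays or groups bear on the values below. Alb, a liver gene, had a median of 5.65 but was above 12 in 4 arrays and above 10 in 9. The array of CsA 25 mg/kg at day 28 number 3 held all 5273 zeros of the table, 17% of its probe sets. Hybridization controls, spiked in after labelling, averaged 9.15 ± 1.04 (SD, n = 5) for FK506 6 mg/kg and 9.66 ± 1.2 (SD, n = 6) for Rapa 1 mg/kg at day 28, and at least 10.38 in every other group. In bulk tissue, fewer cells of a type and less RNA per cell cannot be told apart.

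The sequences just upstream of the genes that shared a call with another member in at least 1 comparison are shown first. No single comparison called them all. Igfbp1, Igfbp3 and Igf1r were called higher under Rapa 10 mg/kg at day 28, and Igfbp1, Igf1r and Insr in vehicle at day 7 against day 1. Igfbp4 shared a call with Igfbp1 under FK506 6 mg/kg at day 28, in opposite directions (-0.54 and 1.63). Whether these genes share a regulator was not tested. Each run is the 250 bases before the annotated start of transcription, written 5′ to 3′ in the direction of the gene, from RefSeq on the build GRCr8. Igfbp1 lies at chr14:86261027-86261276 (plus strand), Igfbp3 at chr14:86277945-86278194 (minus strand), Igfbp4 at chr10:84491221-84491470 (plus strand), Igf1r at chr1:130959747-130959996 (plus strand) and Insr at chr12:6128804-6129053 (minus strand). Capitals mark the letters GTAAACA or CAAAACA on either strand, which form the core of sites known for FoxO factors.
Igfbp1: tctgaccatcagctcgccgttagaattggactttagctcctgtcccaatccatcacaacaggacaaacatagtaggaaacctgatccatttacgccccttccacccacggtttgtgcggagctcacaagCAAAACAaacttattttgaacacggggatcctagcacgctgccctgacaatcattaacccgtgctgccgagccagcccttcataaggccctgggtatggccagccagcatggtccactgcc
Igfbp3: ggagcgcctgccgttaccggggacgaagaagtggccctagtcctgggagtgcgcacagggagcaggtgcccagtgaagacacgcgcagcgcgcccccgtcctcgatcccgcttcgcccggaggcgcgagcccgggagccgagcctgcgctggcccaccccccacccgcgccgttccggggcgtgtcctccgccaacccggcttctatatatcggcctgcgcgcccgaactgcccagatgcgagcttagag
Igfbp4: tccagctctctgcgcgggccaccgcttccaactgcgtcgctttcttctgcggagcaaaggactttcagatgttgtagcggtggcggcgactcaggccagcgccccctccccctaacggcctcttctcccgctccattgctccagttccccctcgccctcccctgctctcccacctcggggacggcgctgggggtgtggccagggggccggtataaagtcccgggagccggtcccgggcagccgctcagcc
Igf1r: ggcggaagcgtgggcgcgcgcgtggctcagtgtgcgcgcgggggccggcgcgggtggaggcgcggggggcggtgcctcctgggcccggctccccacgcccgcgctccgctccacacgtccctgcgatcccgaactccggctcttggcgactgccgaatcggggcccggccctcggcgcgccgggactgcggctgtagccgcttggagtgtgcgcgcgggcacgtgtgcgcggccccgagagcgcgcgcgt
Insr: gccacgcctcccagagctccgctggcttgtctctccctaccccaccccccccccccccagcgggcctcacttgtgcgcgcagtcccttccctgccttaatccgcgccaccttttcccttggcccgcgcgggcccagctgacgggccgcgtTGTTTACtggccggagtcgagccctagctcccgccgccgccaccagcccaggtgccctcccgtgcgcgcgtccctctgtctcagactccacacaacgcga

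The Igfbp1 run holds CAAAACA at positions -121 to -115 from the start, and the Insr run holds TGTTTAC, the other strand of GTAAACA, at -100 to -94. In the window from 250 bases before to 50 after the start, CAAAACA was found on either strand in 6.28% and GTAAACA in 3.78% of 33469 annotated promoters, and the motifs do not overlap each other. The windows of Igfbp3, Igfbp4 and Igf1r hold neither set of letters. The Igfbp1 run had a GC content of 52.8%, against 71.6% for Igfbp3, 68.8% for Igfbp4, 79.6% for Igf1r and 71.2% for Insr. Igfbp1 and Igfbp3 are neighbours on chromosome 14, with start sites 16.7 kb apart on opposite strands, yet their levels correlated at r = -0.13 over the 28 group means, as a description.

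Across the higher doses, 9 of 84 tests of the members against vehicle were called, 7 higher and 2 lower, where 7.66% of all tests of all genes in those 12 comparisons were called. An unadjusted p under 0.05 was reached in 21 of the 84. At the lower doses 4 of 84 were called, all higher, against 2.78% of all genes. Drugs differed from each other in 7 of 84 tests, against 7.36% of all genes, and in each of the 7 the level under Rapa 10 mg/kg was the higher. Between the doses of a drug 1 of 84 tests was called (2.42% of all genes), in vehicle over days 3 of 21, all higher (2.11%), and for the change of an effect from day 1 to day 28 1 of 21 (4.6%). The 3 calls in vehicle all came from day 7 against day 1, and so from the same 8 rats. The members called, and the days on which they were called, follow by role.

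**Figure D1:**
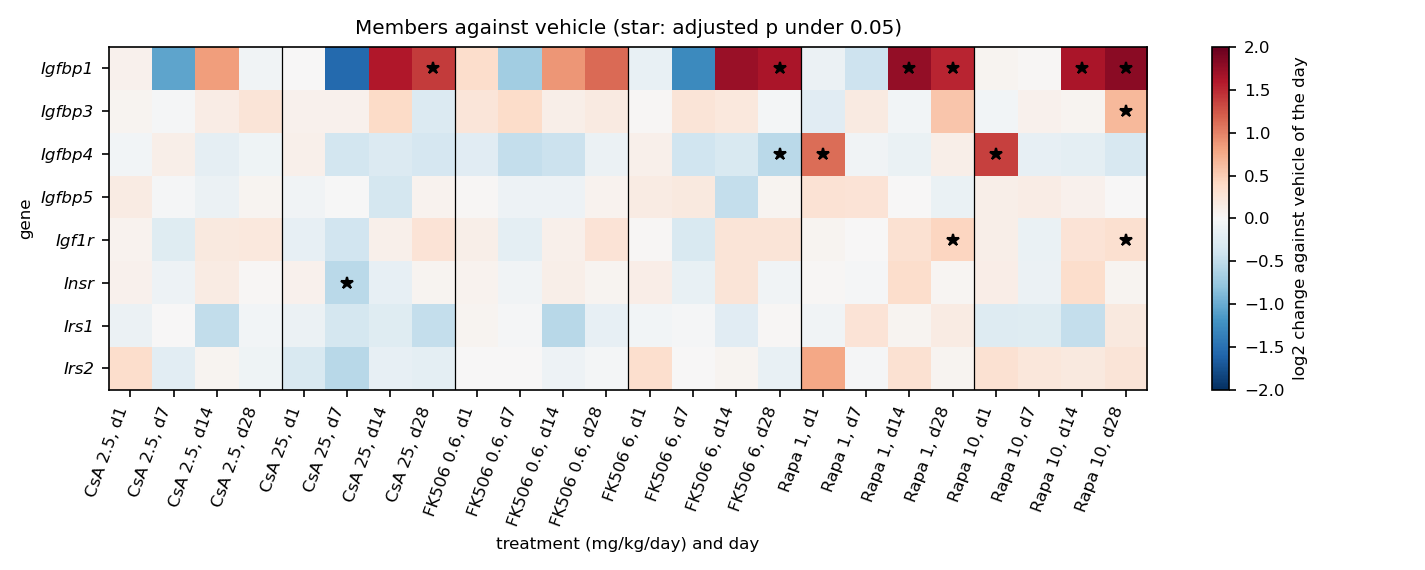
Change of each of the 8 genes (rows) in the 24 treated groups (columns) against the vehicle rats of the same day, as colour from -2 to 2 on the log2 scale. Stars mark an adjusted p under 0.05. Igfbp1 carries 6 stars, all at days 14 and 28, and Igfbp4 shows its 2 highest values at day 1 of Rapa.

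Igfbp1, a small secreted protein that binds IGF and is regulated within hours by feeding and insulin, was the member with the widest range. It rose in kidneys of all 3 higher doses at day 28 and of both Rapa doses at days 14 and 28, by 2.64- to 3.49-fold, and was at vehicle level after a single dose. At day 1 all 28 rats of the 7 groups lay between 8.92 and 10.29, and changes against vehicle ran from -0.15 to 0.35 with none called.

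**Figure D2:**
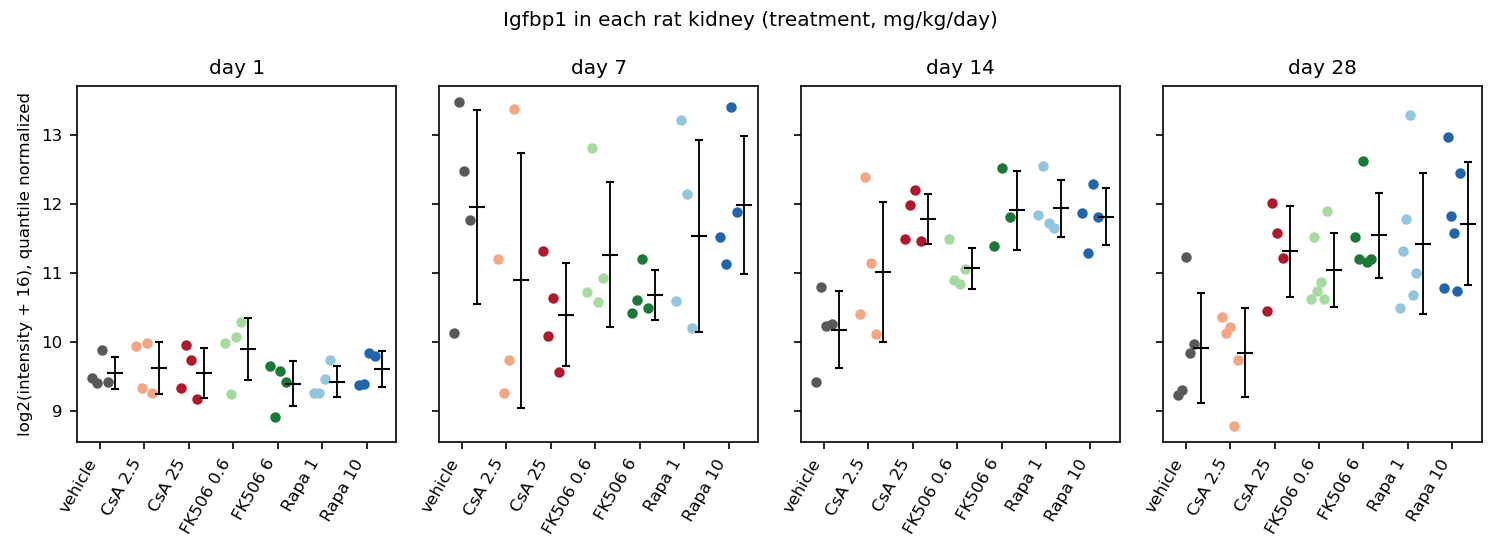
Igfbp1 level (log2 intensity + 16) of each rat, in 1 panel per day, with 7 treatments along the horizontal axis. Points are rats and bars show the mean ± SD. At days 14 and 28 the higher doses and Rapa 1 mg/kg sit mostly above vehicle, while at day 7 vehicle itself is high and spread from 10.13 to 13.48.

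At day 28 the vehicle rats had Igfbp1 levels of 9.23, 9.30, 11.23, 9.84 and 9.98. The rats given CsA 25 mg/kg had 10.45, 12.02, 11.58 and 11.22, and those given FK506 6 mg/kg had 11.53, 11.20, 12.63, 11.17 and 11.20. Rapa 10 mg/kg gave a lowest value of 10.74, a median of 11.7 and a highest of 12.97, and Rapa 1 mg/kg 10.5, 11.17 and 13.3. Every rat of these 4 groups lay above the vehicle mean of 9.92, but vehicle number 3 lay within the range of each group, so the groups overlapped in part.

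Against vehicle the change was 1.81 (SE 0.47, adjusted p = 0.00334, 3.49-fold) for Rapa 10 mg/kg, where 15.7% of all genes were called. It was 1.63 (SE 0.49, adjusted p = 0.013, 3.09-fold) for FK506 6 mg/kg, where 16% of genes were called. For CsA 25 mg/kg it was 1.40 (SE 0.52, adjusted p = 0.0413, 2.64-fold), with 21.1% of genes called, and for Rapa 1 mg/kg 1.52 (SE 0.47, adjusted p = 0.0239, 2.86-fold), with 9.85%. Igfbp1 was thus among the 262 genes, 2.46% of those tested, that were called higher under all 3 higher doses at day 28. FK506 0.6 mg/kg, with 1.13 (adjusted p = 0.165), was not called although all 6 of its rats lay above the vehicle mean, and CsA 2.5 mg/kg was at -0.07 (adjusted p = 1).

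These calls differed in how much they rested on single rats. The rise under Rapa 10 mg/kg was called in every alternative and without each single vehicle rat. Under CsA 25 mg/kg it lost its call in 4 alternatives and without 7 of 9 rats in turn (values from 1.17 to 1.73), also without the array with zeros (1.31, adjusted p = 0.106). Under FK506 6 mg/kg it was 1.36 (adjusted p = 0.0655) without number 3, its highest rat, and under Rapa 1 mg/kg 1.14 (adjusted p = 0.134) without number 4. Without vehicle number 1 or 2 the Rapa 1 mg/kg call was lost as well, at 1.35 and 1.36. With the hybridization control level as a covariate the change was 1.09 (adjusted p = 0.278) for FK506 6 mg/kg and 1.16 (adjusted p = 0.188) for Rapa 1 mg/kg, against 1.83  for Rapa 10 mg/kg, and the part of the controls in the first pair was not tested further.

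Liver is a rich source of Igfbp1, so the liver markers were set beside it. Vehicle number 3, the highest vehicle rat at day 28, had an Alb level of 10.69, and without the 9 arrays above 10 the changes at day 28 were larger: 1.73 for CsA 25 mg/kg, 1.96 for FK506 6 mg/kg, 2.11 for Rapa 10 mg/kg and 1.85 for Rapa 1 mg/kg. The 4 arrays with Alb above 12 had Igfbp1 levels of 9.74, 9.17, 10.12 and 10.14, against medians of 9.54, 9.54, 10.78 and 10.14 in their groups. The arrays with Alb between 10 and 12 each lay above their group's median. These were CsA 2.5 mg/kg at day 1 (9.94, median 9.64) and FK506 6 mg/kg at day 14 (12.53, 11.81). The others were Rapa 10 mg/kg at day 14 (12.29, 11.84) and day 28 (11.83, 11.7) and vehicle number 3 (11.23, 9.84). The part of liver RNA in the Igfbp1 values was not tested. The mean level over the liver list ran from 6.21 to 7.2 in vehicle at day 28, from 6.3 to 6.49 under CsA 25 mg/kg, from 6.05 to 6.88 under FK506 6 mg/kg and from 6.1 to 7.01 under Rapa 10 mg/kg.

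At day 14 the vehicle rats stood at 9.43, 10.80, 10.23 and 10.26. Rapa 10 mg/kg gave 11.88, 11.30, 12.29 and 11.81, and Rapa 1 mg/kg 11.84, 12.55, 11.73 and 11.66. CsA 25 mg/kg gave 11.49, 11.99, 12.20 and 11.47, and FK506 6 mg/kg 11.40, 12.53 and 11.81. All rats of these 4 groups lay above every vehicle rat.

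Igfbp1 was called under Rapa 10 mg/kg at day 14, by 1.64 (SE 0.55, adjusted p = 0.0385, 3.11-fold), where 10.5% of genes were called, and under Rapa 1 mg/kg, by 1.76 (adjusted p = 0.0269, 3.39-fold), where 9.05% were. Of all genes, 15.9% and 11.8% had groups without overlap in these comparisons. Under the calcineurin inhibitors the difference missed the threshold, at 1.60 (SE 0.55, adjusted p = 0.0521, 95% interval 0.52 to 2.69) for CsA 25 mg/kg and 1.73 (SE 0.59, adjusted p = 0.0888) for FK506 6 mg/kg, where 13.9% and 12.2% of genes did not overlap. Both were called in a fit to the compared days alone, with adjusted p of 0.0116 and 0.0323, and that of CsA also without vehicle number 2 (1.81). FK506 0.6 mg/kg, at 11.50, 10.90, 10.84 and 11.06, also lay above every vehicle rat (change 0.89, adjusted p = 0.482, with 6.82% of genes not overlapping), while CsA 2.5 mg/kg was at 0.84 (adjusted p = 0.80) and overlapped vehicle. The Rapa 10 mg/kg call was lost without the arrays with Alb above 10 (1.48, adjusted p = 0.12) and without 6 of 8 rats in turn (1.39 to 1.84). The Rapa 1 mg/kg call was lost without vehicle number 1 (1.51), vehicle number 3 (1.78) or Rapa 1 mg/kg number 2 (1.56). Igfbp1 was 1 of 94 genes, 0.882% of those tested, called higher under both Rapa doses at both day 14 and day 28.

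No difference between drugs in Igfbp1 was called at days 14 and 28 at the doses used, which are not matched (CsA 25, FK506 6 and Rapa 10 mg/kg). At day 28 the difference of CsA from FK506 was -0.23 (95% interval -1.26 to 0.80), of FK506 from Rapa -0.18 (-1.11 to 0.75) and of CsA from Rapa -0.41 (-1.40 to 0.59). At day 14 the same differences were -0.13 (-1.30 to 1.05), 0.09 (-1.08 to 1.27) and -0.03 (-1.12 to 1.05). The intervals are too wide to show that the drugs act alike. At day 7 CsA differed from Rapa by -1.58 ( adjusted p = 0.05, interval -2.67 to -0.50) without a call, and the difference was called in 4 of 12 alternatives and without 3 of 8 rats in turn (-1.89 to -1.11 over the 8). By dose, CsA 25 mg/kg exceeded CsA 2.5 mg/kg at day 28 by 1.47 (SE 0.52, adjusted p = 0.0352, 2.76-fold), with 10.36, 10.14, 10.22, 8.79 and 9.74 in the lower-dose rats, all below the higher-dose ones. In that comparison 18.4% of genes were called and 12.1% did not overlap. The call was lost without the array with zeros (1.38, adjusted p = 0.0973) and without any of 5 rats in turn. Rapa 10 and 1 mg/kg differed at day 28 by 0.29 (95% interval -0.60 to 1.18).

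Day 7 differed from the other days because vehicle itself was high. Its rats had 10.13, 13.48, 12.48 and 11.77, against 9.48, 9.41, 9.89 and 9.42 at day 1, so no rat at day 7 was as low as any at day 1. The rise of 2.41 (SE 0.55, adjusted p = 0.00379, 5.33-fold, 95% interval 1.33 to 3.5) was called in every alternative. Over all genes 3.89% were called and 9.38% did not overlap between these vehicle groups.

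CsA 25 mg/kg at day 7 had 11.32, 10.09, 10.64 and 9.57, and FK506 6 mg/kg 10.42, 10.61, 11.21 and 10.50, all below the vehicle mean of 11.96 but overlapping the vehicle rats. Their differences were -1.56 (adjusted p = 0.0861) and -1.28 (adjusted p = 0.203), while Rapa 10 mg/kg, at 11.53, 11.13, 13.41 and 11.89, was at 0.02 (adjusted p = 0.987). The CsA difference was called without vehicle number 1 (-2.17, adjusted p = 0.0133), and with the Gapdh 3′ to 5′ ratio as a covariate (-2.17, adjusted p = 0.0185). That ratio of a 3′ to a 5′ probe set of 1 gene follows RNA quality and labelling, and it averaged 0.76 ± 0.13 (SD, n = 4) on the log2 scale in vehicle at day 7 against 0.32 ± 0.07 (SD, n = 4) at day 1 and 0.44 ± 0.06 (SD, n = 4) under CsA 25 mg/kg at day 7. The change of the higher-dose effect from day 1 to day 28, tested as an interaction, was 1.39 to 1.78 for the 3 drugs and was not called for any of them (adjusted p of 0.146 to 0.294).

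Igfbp3, the main carrier of IGF in blood, was higher under Rapa than under vehicle or the calcineurin inhibitors at day 28. Vehicle rats had 11.56, 11.13, 11.39, 10.66 and 11.72, and Rapa 10 mg/kg rats 12.09, 12.34, 11.99, 11.39, 12.15 and 11.67. Rats given CsA 25 mg/kg had 11.33, 10.93, 10.82 and 11.01, and those given FK506 6 mg/kg 11.21, 11.43, 10.55, 11.58 and 11.47. The Rapa rats lay above every CsA rat, and overlapped the vehicle and FK506 rats at their lower end.

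Against vehicle Igfbp3 rose by 0.65 under Rapa 10 mg/kg (SE 0.21, adjusted p = 0.0193, 1.57-fold) and was at 0.66 on the gene's other probe set. Without vehicle number 2 (0.61) or number 4 (0.49) it was not called. Of 3 endothelial markers tested, 1 rose in the same comparison (list median 0.28). The mean over that list was 9.74 to 10.1 in the Rapa rats and 9.54 to 9.68 in vehicle, without overlap, and its part in the Igfbp3 rise was not tested. Rapa 1 mg/kg was at 0.55 (adjusted p = 0.0717), CsA 25 mg/kg at -0.27 (adjusted p = 0.438) and FK506 6 mg/kg at -0.04. Between the CsA doses at day 28 the difference was -0.53 (adjusted p = 0.0987), called without the 4 arrays with Alb above 12. Directly compared, CsA 25 mg/kg was lower than Rapa 10 mg/kg (change -0.92, SE 0.22, adjusted p = 0.00106, 0.53-fold), in every alternative and without each of the 4 CsA rats in turn. The Rapa rats were not left out in turn. In that comparison 19.9% of genes were called and 8.48% did not overlap. FK506 6 mg/kg was below Rapa 10 mg/kg as well (-0.69, adjusted p = 0.0164), where 11% of genes were called, but the other probe set gave -0.58 (adjusted p = 0.0625) and the call was lost without FK506 number 3 (-0.52). Endothelial markers stood beside this difference: 2 of 3 tested were called lower under CsA 25 mg/kg than under Rapa 10 mg/kg (list median -0.68), and the mean level over the list was 7.58 in the CsA rat whose array holds zeros, 9.29 to 9.55 in the other 3 and 9.74 to 10.1 in the Rapa rats. Without the array with zeros the Igfbp3 difference was -0.85 (adjusted p = 0.00964), and the part of the endothelial markers was not tested.

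Igfbp4, a binding protein that mostly restrains IGF and is cleaved by pregnancy-associated plasma protein A, had the largest single-dose change of the set. It more than doubled 24 hours after 1 dose of Rapa, at both doses, and was not raised by CsA or FK506. Vehicle rats at day 1 had 8.67, 8.30, 8.11 and 8.37. Rapa 10 mg/kg gave 9.96, 9.83, 9.56 and 9.55, and Rapa 1 mg/kg 9.69, 9.30, 8.97 and 9.97. All other rats of day 1 lay between 7.85 and 8.91, below all 8 Rapa rats.

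The change was 1.36 (SE 0.21, adjusted p = 6.45e-06, 2.57-fold, 95% interval 0.95 to 1.78) for Rapa 10 mg/kg and 1.12 (SE 0.21, adjusted p = 0.000269, 2.17-fold) for Rapa 1 mg/kg. Only 2.82% and 3.08% of all genes were called in these comparisons, and 12.2% and 12.3% did not overlap. CsA 25 mg/kg, at 8.34, 8.46, 8.60 and 8.44, was below Rapa 10 mg/kg (change -1.27, adjusted p = 1.58e-05, 0.42-fold, with 6.64% of genes called and 14.1% not overlapping). FK506 6 mg/kg, at 8.33, 8.48, 8.12 and 8.91, differed from it by the same amount (-1.27, adjusted p = 6.68e-05, with 1.56% called and 8.9% not overlapping). Both calls against vehicle held without any 1 rat.

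**Figure D3:**
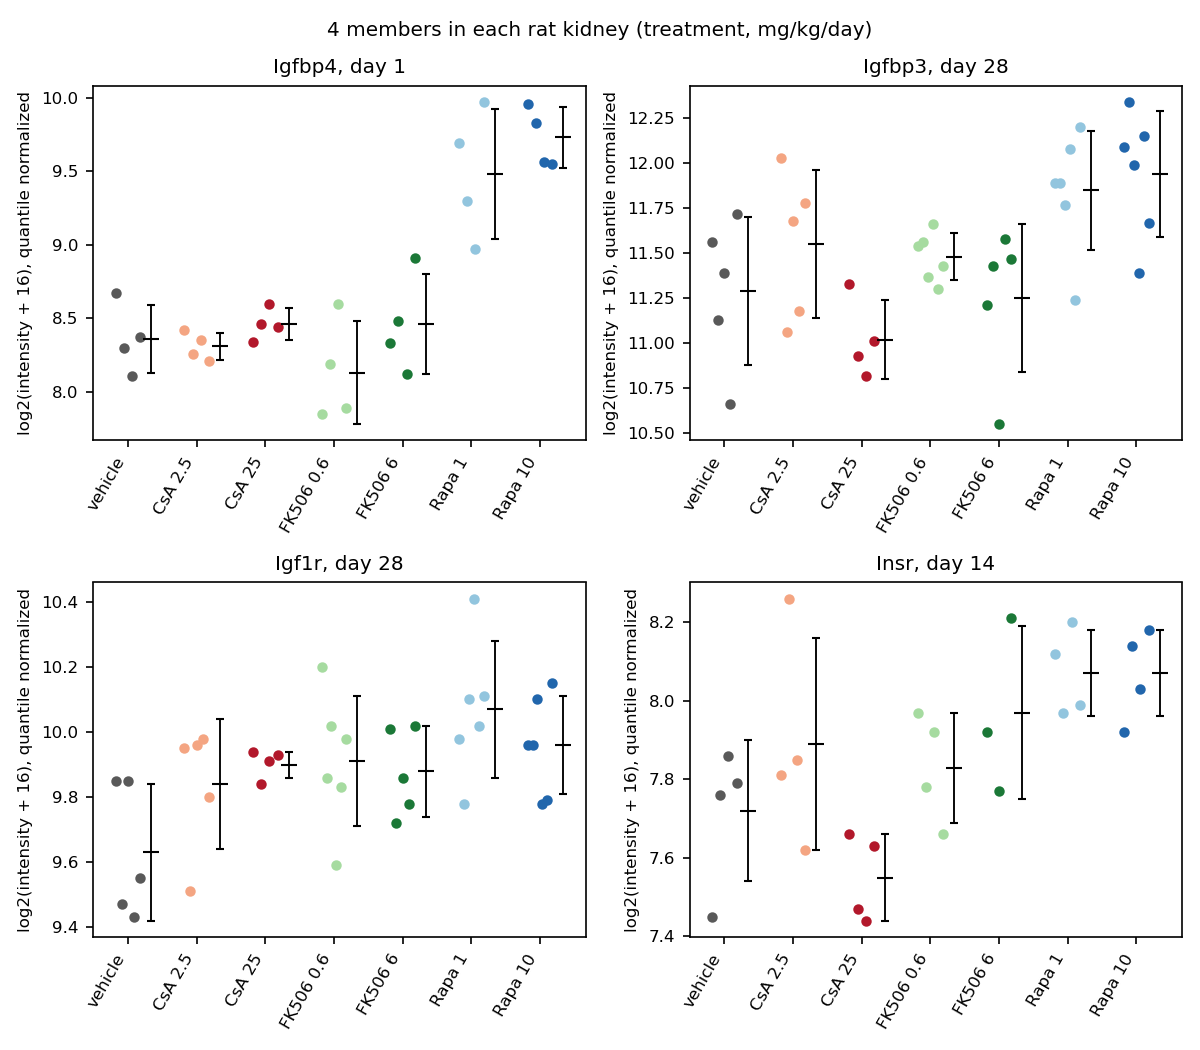
Levels of each rat for Igfbp4 at day 1, Igfbp3 at day 28, Igf1r at day 28 and Insr at day 14, by treatment, with bars for the mean ± SD. The 8 Rapa rats lie between 8.97 and 9.97 for Igfbp4 at day 1, above all others. For Insr at day 14 the 4 rats of CsA 25 mg/kg lie between 7.44 and 7.66, below the 4 of Rapa 10 mg/kg.

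The Gapdh 3′ to 5′ ratio moved with this result. It averaged 0.32 ± 0.07 (SD, n = 4) in vehicle at day 1, 0.73 ± 0.15 under Rapa 10 mg/kg and 0.68 ± 0.16 under Rapa 1 mg/kg, and the lowest Rapa rat (0.57) was above the highest vehicle rat (0.40). With the ratio as a covariate the changes were 0.91 (adjusted p = 0.0683) and 0.71 (adjusted p = 0.128), so neither was called. The difference between CsA 25 mg/kg and Rapa 10 mg/kg was -0.89 in that fit (adjusted p = 0.00762). FK506 6 mg/kg number 4 had a ratio of 0.62 like the Rapa rats, and an Igfbp4 level of 8.91, the highest of all rats without Rapa at that day. Vehicle at day 7 had a ratio of 0.76 ± 0.13 (SD, n = 4) and a mean Igfbp4 level of 8.85. CsA 2.5 mg/kg at day 7 had 0.85 ± 0.37 (SD, n = 4) and 8.96. By Igfbp4 mean these groups ranked 4 and 3 of 28, behind the Rapa groups of day 1. The highest mean ratio of any other group was 0.5. Arrays deposited from FK506 6 mg/kg number 4 (day 1) to CsA 2.5 mg/kg number 3 (day 7) all had at least 0.57. The next array had 0.38, and the part of this run of arrays was not tested. Among cell type markers, 1 of 2 of the distal tubule rose in the same comparisons, and the mean level over both ran from 10.71 to 11.16 in vehicle, from 11.39 to 11.67 under Rapa 10 mg/kg and from 11.48 to 11.72 under Rapa 1 mg/kg. Their part in the result was not tested.

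**Figure D4:**
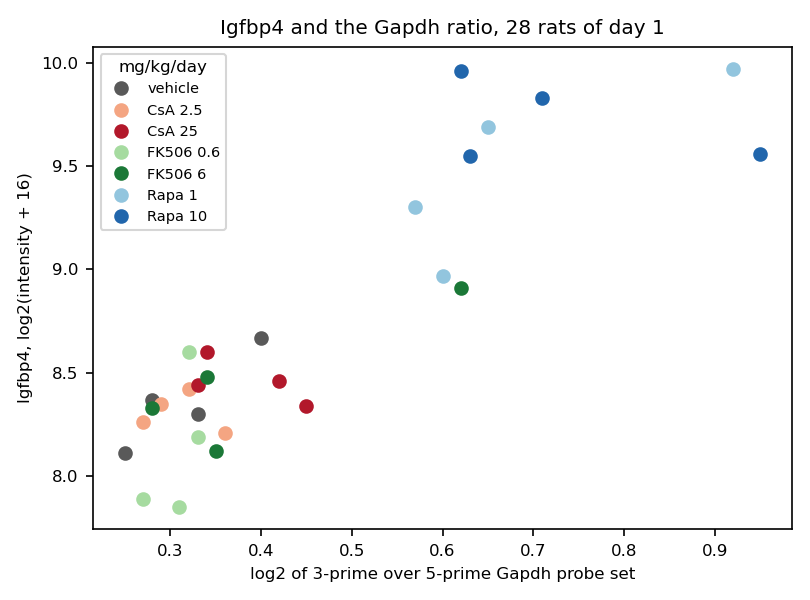
Igfbp4 level of each of the 28 rats at day 1 (vertical axis, log2) against the log2 ratio of the 3′ to the 5′ Gapdh probe set (horizontal axis), coloured by treatment. The Rapa rats are at the upper right, and the FK506 6 mg/kg rat with a ratio of 0.62 lies at 8.91.

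On later days Igfbp4 was not called under either Rapa dose against vehicle. The means under Rapa 10 mg/kg and vehicle were 8.68 and 8.85 at day 7, 8.51 and 8.69 at day 14, and 8.38 and 8.70 at day 28. Rapa 1 mg/kg was at 8.81 at day 28 (change 0.11, adjusted p = 0.784). The effect of Rapa 10 mg/kg at day 28 was lower than at day 1 (change of effect -1.69, SE 0.27, adjusted p = 1.16e-05), where 5.54% of all genes were called, and this was called in every alternative, also with the Gapdh ratio as a covariate (-1.24, adjusted p = 0.0056). At day 28 Igfbp4 fell under FK506 6 mg/kg, from 8.71, 8.88, 8.71, 8.51 and 8.70 in vehicle to 8.22, 7.94, 7.90, 8.41 and 8.36, with no overlap (11.2% of all genes had none). The change of -0.54 (SE 0.19, adjusted p = 0.0353) lost its call in 4 alternatives, at -0.45 to -0.54, and without 7 of 10 rats in turn. Both distal tubule markers fell in the same comparison (median -2.38), with a mean list level of 8.5 to 8.95 against 10.39 to 11.5 in vehicle. Of the macrophage and myeloid markers 3 of 4 rose (median 0.6), at 8.55 to 9.2 against 7.99 to 8.47, and the part of these markers in the Igfbp4 fall was not tested.

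Igfbp5, which binds IGF in the extracellular matrix, was not called against vehicle in any of 24 comparisons, with changes from -0.48 to 0.29. Its 1 call was between drugs at day 14, where FK506 6 mg/kg had 11.97, 11.26 and 11.71 and Rapa 10 mg/kg 12.25, 11.96, 12.29 and 12.33. The groups overlapped by 1 rat, and the difference of -0.56 (SE 0.17, adjusted p = 0.0269), where 9.41% of genes were called, was lost without FK506 number 2 (-0.37), without Rapa number 1, 3 or 4, and without the arrays with Alb above 10 (-0.34). The other 4 probe sets of Igfbp5 gave -1.48 (adjusted p = 8.01e-05), -0.85, 0.06 and -0.08 in the same comparison, so they did not agree in direction. CsA 25 mg/kg against Rapa 10 mg/kg at day 14 was at -0.43 (adjusted p = 0.0602).

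Igf1r, the receptor for IGF1, was called higher than in vehicle under both Rapa doses at day 28. Vehicle rats had 9.85, 9.47, 9.85, 9.43 and 9.55, Rapa 10 mg/kg rats 9.96, 9.96, 10.10, 9.78, 9.79 and 10.15, and Rapa 1 mg/kg rats 9.98, 9.78, 10.10, 10.41, 10.02 and 10.11. The highest vehicle rats reached the lowest rats of each Rapa group. The rise was 0.43 (SE 0.11, adjusted p = 0.00646, 1.35-fold) at 1 mg/kg, kept in every alternative and without any 1 vehicle rat. At 10 mg/kg it was 0.32 (SE 0.11, adjusted p = 0.0377, 1.25-fold). That call was lost without the filter on dim genes (adjusted p = 0.0506) and without vehicle number 2, 4 or 5. Of all genes 9.85% were called at 1 mg/kg and 15.7% at 10 mg/kg.

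The second probe set of Igf1r showed less, 0.13 and 0.08 (adjusted p = 0.645 and 0.798), so the rise rests on 1 probe set. CsA 25 mg/kg (0.27, adjusted p = 0.116), FK506 6 mg/kg (0.25, adjusted p = 0.15) and FK506 0.6 mg/kg (0.28, adjusted p = 0.153) were also above vehicle but not called, and no difference between drugs was called. CsA 2.5 mg/kg, with a mean of 9.84 against 9.63 in vehicle, was likewise above without a call. In vehicle rats Igf1r rose from 9.48, 9.51, 9.57 and 9.82 at day 1 to 9.80, 9.95, 10.16 and 10.54 at day 7 (0.52, SE 0.13, adjusted p = 0.011), and on the second probe set by 0.60 (adjusted p = 0.00158). Only the lowest rat of day 7 lay within the range of day 1. Without vehicle number 4 at day 7 the change was 0.38 and not called.

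Insr, the insulin receptor, was lower under CsA 25 mg/kg than under vehicle at day 7 and than under Rapa 10 mg/kg at days 7 and 14. At day 14 CsA rats had 7.66, 7.47, 7.44 and 7.63 and Rapa 10 mg/kg rats 7.92, 8.14, 8.03 and 8.18, without overlap, as for 20.7% of all genes. The difference was -0.52 (SE 0.14, adjusted p = 0.00506), called in every alternative, where 14.7% of genes were called, but the gene's second probe set, with a mean level of 6.20, gave 0.00. Against vehicle (7.45, 7.76, 7.86 and 7.79) both Rapa doses at day 14 lay above every vehicle rat without a call, each at 0.35 (adjusted p = 0.087 at 10 mg/kg and 0.0958 at 1 mg/kg). Of all genes, 15.9% at 10 mg/kg and 11.8% at 1 mg/kg had groups without overlap.

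At day 7 CsA 25 mg/kg had 7.58, 7.50, 7.97 and 7.21 and vehicle 7.78, 8.22, 8.32 and 8.12. Insr was lower (change -0.54, SE 0.14, adjusted p = 0.0102, 0.69-fold), where 3.97% of genes were called, with 1 CsA rat inside the vehicle range. The second probe set gave -0.38 (adjusted p = 0.368), and the call was lost without vehicle number 3 (-0.47) or CsA number 4 (-0.43). A fit to the days compared gave it an adjusted p of 0.067. The difference from Rapa 10 mg/kg at day 7 was -0.42 (adjusted p = 0.0369), where 9.43% of genes were called, and was lost without 6 of 8 rats in turn. In vehicle rats Insr was higher at day 7 than at day 1 (7.44, 7.78, 7.85 and 7.49) by 0.47 (SE 0.14, adjusted p = 0.0337), while the second probe set gave -0.07, and the call was lost with the Gapdh ratio as a covariate (0.55, adjusted p = 0.0571) and without 5 of 8 rats in turn. Under CsA 25 mg/kg 3 of 4 macrophage and myeloid markers rose at day 7 (list median 0.94) and day 14 (1.1), with mean list levels of 9.01 to 9.46 against 8.02 to 8.51 in vehicle at day 7. Both distal tubule markers fell on these days (medians -2.15 and -1.93), and the markers' part in the Insr values was not tested.

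The adaptors that carry the signal from both receptors were not called in any comparison. Irs2 had group means from 7.57 (CsA 25 mg/kg, day 1) to 8.65 (Rapa 1 mg/kg, day 1), and changes against vehicle from -0.56 to 0.78. The highest of these was Rapa 1 mg/kg at day 1, with 8.47, 8.20, 9.09 and 8.83 against 7.68, 7.95, 8.10 and 7.75 in vehicle. The groups did not overlap, as for 12.3% of all genes, and the difference of 0.78 (SE 0.30) missed the threshold (adjusted p = 0.156). Irs1 was near the lower end of the array's range, with group means from 4.71 (CsA 25 mg/kg, day 28) to 5.5 (Rapa 1 mg/kg, day 7), and was not tested.

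Set in order over the 28 groups, Igfbp1 ran from 9.4 under FK506 6 mg/kg at day 1 to 11.99 under Rapa 10 mg/kg at day 7, with a median SD within groups of 0.56. Igfbp4 ran from 8.13 (FK506 0.6 mg/kg, day 1) to 9.73 (Rapa 10 mg/kg, day 1), with a median SD of 0.28, and Igfbp3 from 11.02 (CsA 25 mg/kg, day 28) to 11.94 (FK506 0.6 mg/kg, day 1), with 0.33. Igfbp5 ran from 11.56 to 12.26, Igf1r from 9.42 to 10.12 and Insr from 7.55 to 8.11, each with a median SD of 0.18. Of the 27 pairs of neighbours in each order, the means lay apart by more than the larger SD in 1 for Igfbp4 and in none for the other 7 genes.

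The genes most like each member over the 28 group means, by Pearson correlation and as a description with no test, were Ptpn12 (0.94), Smad4 (0.91) and Rin2 (0.88) for Igfbp1. For Igfbp3 they were Wipi1 (0.72), Armt1 (0.66) and Mtpap (0.65), and for Igfbp4 Gas2l1 (0.84), Zfp148 (0.82) and Usf2 (0.81). Igfbp5 was most like Cdipt (0.77), Mta3 (0.74) and Ly6c (0.71), Igf1r like Etnk1 (0.85), Enpp4 (0.81) and Cnppd1 (0.81), Insr like Kti12 (0.81), Sik2 (0.78) and Nob1 (0.77), and Irs2 like Sptan1 (0.79), Tfap4 (0.76) and Sox13 (0.75). The group means share arrays and normalization, and over the 120 single arrays 3 of these 21 genes were again among the 3 most alike. Among the members, the highest correlations over group means were Igf1r and Insr at 0.73, Igfbp1 and Igf1r at 0.69, Igf1r and Irs2 at 0.63 and Igfbp1 and Insr at 0.62. Over the 120 arrays these pairs were at 0.48, 0.55, 0.19 and 0.57. The lowest over group means were those of Igfbp5 with Igf1r (-0.39), Igfbp1 (-0.38) and Igfbp3 (-0.35).

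A list of 62 other genes of the pathway gave 49 that were tested, and 44 calls in the 12 higher-dose comparisons. The share of the list called was 16.3% under CsA 25 mg/kg at day 28 (4 higher and 4 lower, 21.1% of all genes), 6.12% under FK506 6 mg/kg (2 and 1, 16% of all genes) and 12.2% under Rapa 10 mg/kg (1 and 5, 15.7%). At day 14 it was 4.08% for CsA 25 mg/kg (7.89% of all genes), none for FK506 6 mg/kg (2.68%) and 18.4% for Rapa 10 mg/kg (6 higher and 3 lower, 10.5%). At day 7 it was 10.2% for CsA 25 mg/kg (2 higher and 3 lower, 3.97% of all genes), 8.16% for FK506 6 mg/kg (2 and 2, 3.2%) and 12.2% for Rapa 10 mg/kg (4 and 2, 7.3%). At day 1 Rapa 10 mg/kg had 1 call (2.04%, 2.82% of all genes), and CsA 25 mg/kg (0.675% of all genes) and FK506 6 mg/kg (0.0281%) had none. The list's median change stayed within -0.06 to 0.06 against vehicle.

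**Figure D5:**
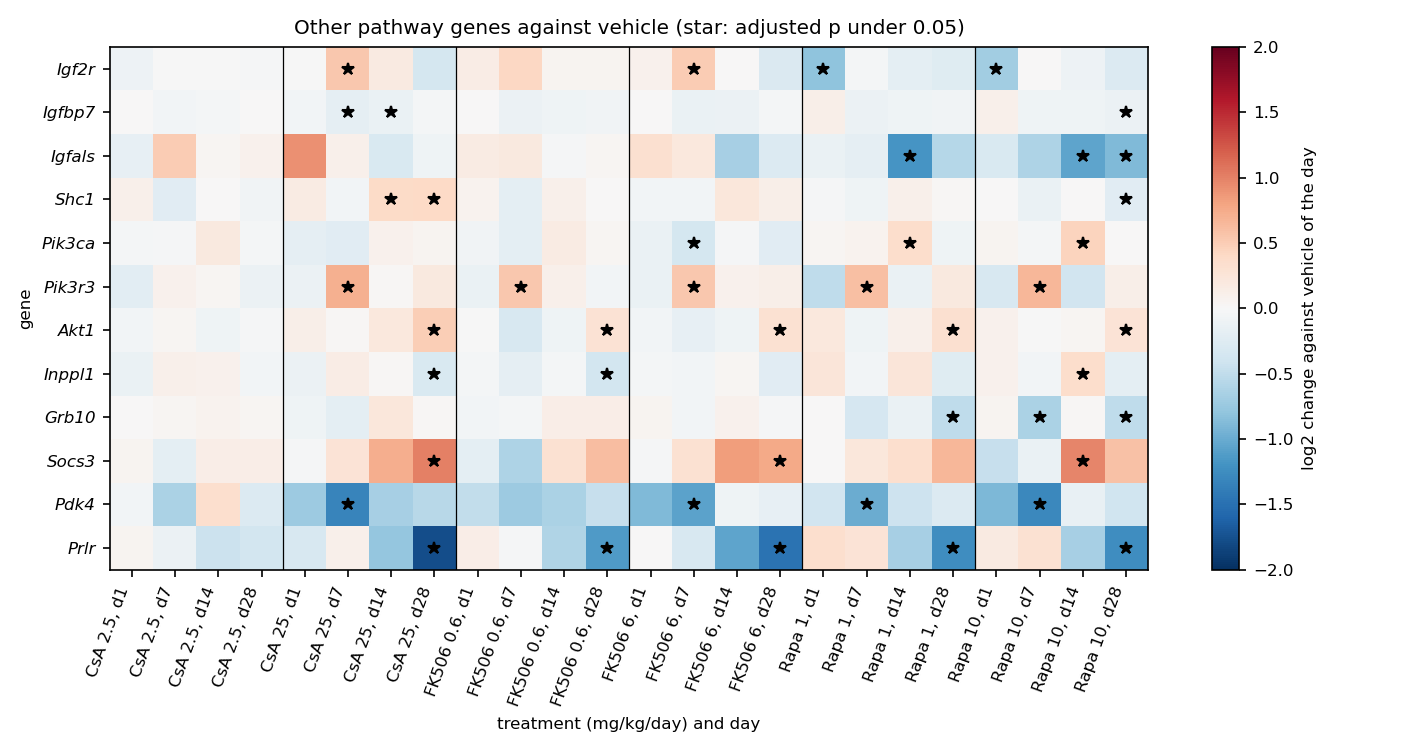
Change against vehicle (log2, colour from -2 to 2) of the 12 pathway genes called in at least 3 of the 24 comparisons with vehicle, with stars for an adjusted p under 0.05. Prlr carries stars in the day 28 groups other than CsA 2.5 mg/kg, and Grb10 carries stars under Rapa at days 7 and 28.

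Among the ligands and carriers, Igf1 was lower under Rapa 10 mg/kg at day 14, at 8.7 ± 0.43 against 9.73 ± 0.08 (SD, n = 4 each) in vehicle (-1.03, SE 0.31, adjusted p = 0.0197). This call was lost without vehicle number 2 or Rapa number 1. At day 7 Igf1 was higher under CsA 25 mg/kg (9.99 ± 0.13) than under Rapa 10 mg/kg (8.56 ± 0.16), by 1.43 (adjusted p = 0.00073). Igfals, which encodes the acid-labile subunit that holds IGF and Igfbp3 in a circulating complex, fell under Rapa 10 mg/kg at day 14 (-1.06, SE 0.26, adjusted p = 0.0038) and day 28 (-0.88, SE 0.22, adjusted p = 0.00279) and under Rapa 1 mg/kg at day 14 (-1.18, adjusted p = 0.00152), in every alternative. Igf2r, the scavenger receptor for IGF2, fell after 1 dose of Rapa, from 11.81 ± 0.17 to 11.12 ± 0.16 at 10 mg/kg (-0.70, SE 0.14, adjusted p = 0.00112) and 11.01 ± 0.13 at 1 mg/kg (-0.81, adjusted p = 0.000114). Of the Igf2r calls at day 1, the 1 at 10 mg/kg was lost with the Gapdh ratio as a covariate and the other was kept. Pappa2, a protease that cleaves Igfbp3 and Igfbp5, was lower under FK506 6 mg/kg (5.61 ± 0.38) than under Rapa 10 mg/kg (6.91 ± 0.44) at day 7 (-1.30, adjusted p = 0.000592). Its 2 calls against vehicle were rises under Rapa 10 mg/kg, at day 7 (0.86, adjusted p = 0.0337) and day 14 (0.86, adjusted p = 0.0252). Each was lost in 2 of 12 alternatives, and without 3 of 8 rats in turn at day 7 and 4 of 8 at day 14. The mean level of Pappa2 was low (6.09), with little signal over background.

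Within the cell, Grb10 is an adaptor whose protein binds and inhibits both receptors and is itself stabilised by mTOR complex 1. Only RNA was measured here, and the RNA level of Grb10 differed between Rapa and the other drugs. It fell under Rapa 10 mg/kg at day 7 (-0.64, SE 0.11, adjusted p = 3.97e-05) and day 28 (-0.51, SE 0.10, adjusted p = 3.82e-05) and under Rapa 1 mg/kg at day 28 (-0.51, adjusted p = 9.6e-05). Mean levels at day 28 were 8.24 ± 0.13 and 8.24 ± 0.1 (SD, n = 6 each) under Rapa, against 8.75 ± 0.13 (n = 5) in vehicle, 8.78 ± 0.31 (n = 4) under CsA 25 mg/kg and 8.73 ± 0.13 (n = 5) under FK506 6 mg/kg. Both calcineurin inhibitors were above Rapa 10 mg/kg at day 28, by 0.48 for FK506 (adjusted p = 0.000154) and 0.54 for CsA (adjusted p = 3.14e-05), in every alternative. The fall was not called at day 14 under either Rapa dose, and the effect of Rapa 10 mg/kg changed from day 1 to day 28 by -0.57 (adjusted p = 0.00842).

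Akt1, the kinase downstream of PI3 kinase, rose at day 28 under CsA 25 mg/kg by 0.49 (SE 0.09, adjusted p = 2.9e-05, in every alternative), FK506 6 mg/kg by 0.31 (adjusted p = 0.00621), Rapa 10 mg/kg by 0.27 (adjusted p = 0.0149), Rapa 1 mg/kg by 0.32 (adjusted p = 0.00506) and FK506 0.6 mg/kg by 0.29 (adjusted p = 0.0234). Vehicle stood at 9.28 ± 0.19 and CsA 2.5 mg/kg at 9.25 ± 0.11 (SD, n = 5 each). The calls of FK506 6 mg/kg, Rapa 10 mg/kg and FK506 0.6 mg/kg were lost without the arrays with Alb above 10. That of FK506 6 mg/kg was also lost without its number 3. Those of Rapa 10 mg/kg and FK506 0.6 mg/kg were also lost in a fit to the compared days alone and without vehicle number 2 or 3. Shc1, an adaptor toward Ras, rose under CsA 25 mg/kg at day 14 (0.39, adjusted p = 0.0025) and day 28 (0.4, adjusted p = 0.000304). At day 28 Shc1 was below vehicle under Rapa 10 mg/kg (-0.22, adjusted p = 0.0382), a call lost in 4 of 12 alternatives. Between these drugs, CsA 25 mg/kg was above Rapa 10 mg/kg at day 28 by 0.62 (adjusted p = 1.72e-08). Pik3r3, a regulatory subunit of PI3 kinase, was higher in 5 of 6 treated groups at day 7, by 0.54 to 0.71. It was also lower in vehicle at day 7 (6.52 ± 0.26) than at day 1 (7.34 ± 0.11), by -0.83 (adjusted p = 0.000496), and all these calls share the 4 vehicle rats with the high Gapdh ratio and were lost with that ratio as a covariate.

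Of the 10 FoxO factors and targets tested, Pdk4, Klf15 and Sesn1 were called lower and Foxo1 and Cited2 higher in at least 1 comparison with vehicle. The share of all genes called at least once over these comparisons was not computed, so this count shows nothing particular to the list. Pdk4, a kinase that blocks glucose oxidation, fell at day 7 under CsA 25 mg/kg (-1.32, SE 0.30, adjusted p = 0.00388), FK506 6 mg/kg (-1.07, adjusted p = 0.0291), Rapa 10 mg/kg (-1.29, adjusted p = 0.00254) and Rapa 1 mg/kg (-1.0, adjusted p = 0.0365), from 10.51 ± 0.36 (SD, n = 4) in vehicle, and was not called at day 28. The FK506 and Rapa 1 mg/kg calls were lost in a fit to the compared days alone, with the Gapdh ratio as a covariate, and without 4 and 5 of 8 rats in turn. Over the 12 alternatives other than leaving out 1 rat in turn the changes stayed at -1.08 to -1.06 and at -1.02 to -0.99. Foxo1 was higher under Rapa 1 mg/kg at day 7 (0.45, adjusted p = 0.0443), and Cited2 at day 28 (0.32, adjusted p = 0.0348). Klf15, a glucocorticoid-induced regulator of amino acid use, fell under CsA 25 mg/kg at day 7 (-0.70, adjusted p = 0.0016), and Sesn1 at day 28 (-0.50, adjusted p = 0.00653). Among inhibitors of the pathway, Socs3, which is induced by cytokines, rose under CsA 25 mg/kg at day 28 from 5.49 ± 0.55 to 6.49 ± 0.28 (1.0, SE 0.29, adjusted p = 0.00627), a call lost without the arrays with Alb above 10. The lower Ptpn1 in the same comparison (-0.84, adjusted p = 0.00647) was lost without the array with zeros.

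In the growth hormone and prolactin arm, Prlr, the prolactin receptor, was called lower at day 28 in 5 of the 6 treated groups. The vehicle level was 11.87 ± 0.43 (SD, n = 5), and the changes were -1.77 for CsA 25 mg/kg (SE 0.35, adjusted p = 8.65e-05), -1.48 for FK506 6 mg/kg (adjusted p = 0.000682), -1.25 for Rapa 10 mg/kg (adjusted p = 0.00284), -1.24 for Rapa 1 mg/kg (adjusted p = 0.00544) and -1.13 for FK506 0.6 mg/kg (adjusted p = 0.022). CsA 2.5 mg/kg was at 11.5 ± 0.32, with no call (-0.37, SE 0.33). The calls of FK506 6 mg/kg and Rapa 1 mg/kg were lost with the hybridization control level as a covariate, and that of Rapa 1 mg/kg also without its number 4. The FK506 0.6 mg/kg call was lost without vehicle number 1 or 4.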

How the data were processed

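Kidney RNA of 120 rats, 1 Affymetrix Rat 230 2.0 array each, was labelled as biotin cRNA in a one-cycle 3′ protocol, per the labels' protocols. The values deposited by the authors are linear intensities, and how the authors summarized probes and scaled arrays is not given in the sources used here. From them log2(intensity + 16) was computed and quantile normalized, so the log2 levels are not the authors' own but derived from the deposited intensities. Of 31099 probe sets, 20826 carried 1 gene, 436 several, 9780 none and 57 were controls. Each of 14217 genes was represented by its brightest probe set, and the dimmest 25% (3554 genes, Irs1 among them) were left out of tests.

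limma 3.58.1 in R 4.3.3 fitted 1 mean for each of 28 groups (92 residual and 2.96 prior degrees of freedom) with two-sided empirical Bayes tests in 54 comparisons. The fit was tested on simulated data. Precision is limited by the number of arrays. Groups were taken from the labels. Each rat is a separate animal, and the labels give no batch or scan date. The highest correlation between arrays was 0.98, and no arrays were merged.

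The members and lists were chosen with earlier results of these data known. All 8 members are named in every comparison. Of the pathway list, genes were named mostly from the up to 6 called genes with the largest absolute change per comparison. Not all of those are named above. Pik3cd, for example, was called under CsA 25 mg/kg at day 28 (0.99, adjusted p = 0.0397), a call lost without the array with zeros. The 3 genes most like each member are named as well. Alternatives were no quantile normalization, an offset of 1, no dim filter, all probe sets apart, an intensity trend, a fit to the compared days, covariates for the Gapdh ratio and for hybridization controls, and leaving out arrays with Alb above 12 or 10, the array with zeros, Rapa 1 mg/kg at day 28 number 4, or single rats of groups with at most 5.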

Additional observations from a re-analysis of the deposited data

Results flagged for a closer look

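Each of the 8 genes was looked at in each group of 4 to 6 rats, which gave 216 sets that share the same rats. In 7 of these sets 1 rat stood far from the others of its group, by the gap to its nearest neighbour over the group's range. Chance flags about 1 in 20 sets, a larger share than was found here. For Igfbp1 these were vehicle at day 1 number 3 (9.89, the others 9.41 to 9.48), FK506 0.6 mg/kg at day 7 number 2 (12.82, the others 10.58 to 10.93) and FK506 6 mg/kg at day 28 number 3 (12.63, the others 11.17 to 11.53). For Igfbp3 it was CsA 25 mg/kg at day 1 number 3 (12.03, the others 11.7 to 11.75), an array with a high Alb level. For Igfbp4 it was FK506 6 mg/kg at day 7 number 1 (8.61, the others 8.38 to 8.42). For Igfbp5 these were vehicle at day 7 number 2 (10.83, the others 11.88 to 11.98) and CsA 25 mg/kg at day 14 number 3 (11.63, the others 11.81 to 11.85).

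The effect of Rapa 10 mg/kg on Igfbp4 differed between days by the interaction term, with -1.69 for the effect at day 28 minus that at day 1 (SE 0.27, limma adjusted p = 1.16e-05).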

How the results depend on the processing

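Over the 31 pairs of a member and a comparison that were called with all rats or under some alternative, 12 alternatives gave 337 values on the same side of the threshold, 22 weaker, 13 stronger and none reversed. Leaving out 1 rat at a time gave 174, 55, 7 and none reversed. The number of member calls across a family ranged, without 1 rat, from 5 to 13 (9 with all rats) for the higher doses (61 rats left out in turn, the lowest without vehicle at day 28 number 2), from 3 to 5 (4 with all rats) for the lower doses (58 left out), from 6 to 8 (7) between drugs (44), from 0 to 2 (1) between doses (85), from 1 to 3 (3) in vehicle over days (17, the lowest without vehicle at day 7 number 4) and stayed 1 for the change of effect (30). The single call between doses, Igfbp1 for CsA at day 28, became 2 without quantile normalization, 2 without the arrays with Alb above 12 and 2 without those above 10. It became 0 in a fit to the compared days alone, 0 with the Gapdh ratio as a covariate and 0 without the array with zeros. The cause was not tested. Of the 21 genes most like a member, 3 were shared when the correlation ran over 120 arrays. Groups of 6 rats were not left out 1 at a time. No paired analysis was possible because the labels give no replicate numbers and each rat is a separate animal. Values near the offset of 16, such as those of Irs1, Socs3 (mean level 5.89), Pappa2 (6.09) and the second Insr probe set, have little signal over background.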
